A study of Rattus norvegicus with 15 samples.

Results

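Peripheral blood DNA of streptozotocin-diabetic rats treated with calcium dobesilate (CaD) and insulin was compared with that of untreated control rats, to see which methylation ratios differed from the healthy state under treatment. The members are the 3 arrays titled as CaD treatment and the 3 titled as control, 6 of the 15 arrays of the study. All animals were male Sprague-Dawley rats, an outbred strain, aged 20 weeks at sampling. Diabetes was induced at 8 weeks with intravenous streptozotocin (STZ, 45 mg/kg), which kills pancreatic beta cells. Control rats received the citrate buffer alone and distilled water. The CaD rats were diabetic rats (blood glucose above 13.9 mmol/l) given CaD by gavage at 0.25 g/kg per day, with insulin at 1.5 IU per day. The CaD and control arrays therefore differ in STZ, diabetes, CaD and insulin together, and the shares of these cannot be told apart in this comparison. The other 9 arrays are 3 each of the untreated diabetic retinopathy (DR) model, of the model given the Luo-tong formula (LTF, 2 g/kg per day) with the same insulin dose, and of the model given another Chinese formula, whose dose and insulin the labels do not state. The labels call the arrays biological replicates, and the protocol lists 10 rats in each group other than that second formula. Whether an array holds 1 rat or a pool is not stated, so p-values measure only the spread between these arrays.

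DNA methylation in mammals is mostly the addition of a methyl group to cytosine next to guanine. Methylated DNA immunoprecipitation (MeDIP) pulls down sheared DNA with an antibody to methylated cytosine, and DNA rich in methylated CpG is recovered most. Blood DNA comes from the nucleated leukocytes, whose types carry different methylation patterns, so a ratio in whole blood is an average over them. CaD is a vasoprotective drug given for diabetic retinopathy, a disease of the small vessels of the retina, and blood is not the diseased tissue.

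Each array carried MeDIP DNA in the red channel (Cy5) and input DNA of the same sample, not enriched, in the green channel (Cy3). The measure was the log2 ratio of MeDIP to input over 172669 probes, with the median of each array set to 0, so a positive value means more enrichment than the middle probe of that array. Neighbouring probes no more than 500 bp apart formed a region, and the 16782 regions with 3 or more probes were tested (median 10 probes). A region was called where limma's moderated test gave a Benjamini-Hochberg adjusted p under 0.05. The median MeDIP signal was 58.3, 43.6 and 47.6 on the control arrays and 60.8, 58.5 and 57.9 on the CaD arrays. MeDIP signal was well above background at 87.4%, 82.6% and 82.5% of probes on the control arrays. On the CaD arrays the shares were 87.5%, 86.6% and 88.7%. Region values correlated at 0.940 to 0.970 among control arrays, at 0.967 to 0.976 among CaD arrays and at 0.915 to 0.963 between the groups. The files pair no probe with a gene, so regions are given by their rn4 positions, and leukocyte markers could not be looked up.

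With CaD, 1257 of 16782 regions (7.49%) differed from control at adjusted p under 0.05 (limma). Of these, 925 (5.51% of all regions) were higher with CaD and 332 (1.98%) were lower. The higher regions were poorly enriched ones, with a median log2 ratio of -0.98 in control and -0.57 in CaD. The lower regions were enriched ones, with a median of 0.63 in control and 0.30 in CaD. Differences were modest: the higher regions rose by 0.20 to 0.90 on the log2 scale (median 0.41, 223 at or above 0.5), and the lower regions ran from -0.88 to -0.19 (median -0.32, 12 at or beyond 0.5 in size). The 3 CaD arrays lay wholly on one side of the 3 control arrays in 5265 regions (31.4%).

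The number of calls depended on single arrays and on the scanning. It was 211 without control replicate 3, 94 without CaD replicate 1, 1 without CaD replicate 2 and 702 without CaD replicate 3, while 1488 and 1031 were called without control replicates 1 and 2. By their time stamps the 15 arrays fell into 6 scans on 3 days, and no scan held both CaD and control arrays. With the scan as a random block 1 region was called, and with the scan as a fixed block none, although 2690 and 1532 regions had an unadjusted p under 0.05 (limma). The fixed-block fit left out the LTF arrays and had 4 residual degrees of freedom. In it CaD and control were linked only through DR replicates 1 and 3, which shared their scans, so the comparison was indirect. The first day held 1 array of each group (CaD replicate 3 and control replicate 1), which have no spread of their own there. With the spread taken from the other arrays and assumed to hold for these, 20 regions were called, 15 higher and 5 lower, which checks nothing between replicates. Within the third day (CaD replicates 1 and 2 against control replicates 2 and 3) there were 1675, 1442 higher and 233 lower.

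The excess of higher calls also depended on the scaling. CaD arrays had a narrower spread of median-centred ratios: the interquartile range over probes was 1.22, 1.23 and 1.28 on the CaD arrays and 1.35, 1.47 and 1.55 on the control arrays. The groups did not overlap, and the means were 1.24 ± 0.0340 and 1.46 ± 0.0995 (SD, n = 3 each, exact two-sided permutation p = 0.1, the smallest that 3 against 3 allows). The difference in width of -0.22 was -0.06 in the authors' deposited values and turned to 0.0272 with normexp background correction. The deposited values had slopes of 0.42 to 0.53 on the scanner ratios of the CaD and control arrays, so their widths are on a narrower scale. With median centring the other formula and LTF arrays had widths near those of CaD, at 1.25 ± 0.0521 and 1.28 ± 0.0644. The DR arrays stood at 1.45 ± 0.202 (SD, n = 3 each), so a narrow width was not particular to CaD. Quantile normalization, which gives every array the same distribution, left 279 regions (1.66%), 121 higher (0.721%) and 158 lower (0.941%). Under both scalings 247 regions (1.47%) were called the same way, 118 higher (0.703%) and 129 lower (0.769%). These 247 had median differences of 0.51 and -0.36 with median centring. The values the authors deposited gave 1366 calls, 582 higher and 784 lower, and normexp background correction gave 2387, 2273 higher and 114 lower, so only the presence of calls both ways, not their balance, held across these scalings.

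**Figure D1:**
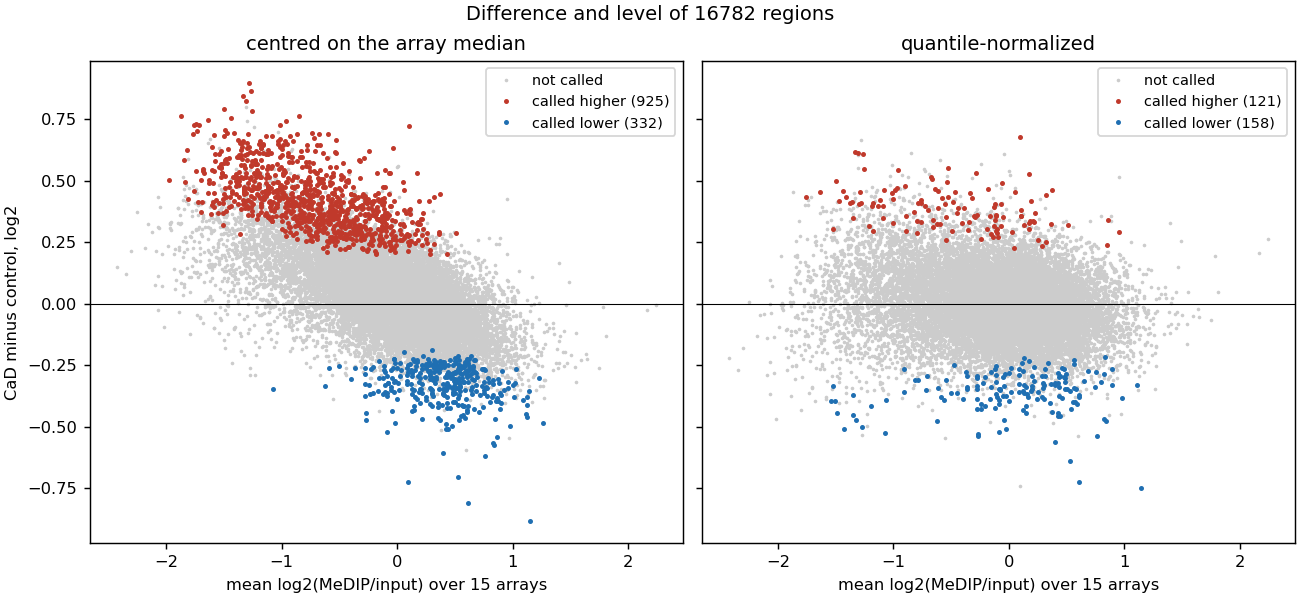
Each point is 1 of 16782 regions, with the mean log2(MeDIP/input) over 15 arrays on the x axis and the CaD minus control difference (log2) on the y axis, for median-centred values on the left and quantile-normalized differences on the right. Red and blue mark regions called higher (925 left, 121 right) and lower (332 left, 158 right), and the cloud on the left slopes from higher at low levels to lower at high levels.

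The difference followed the level of the region. Regions were divided into 5 equal bins by their mean ratio over all 15 arrays. The 3357 regions of least enrichment held 585 higher and 3 lower calls (median difference 0.22). The top bin held 5 higher and 200 lower calls (median -0.09). The bins between them held 204 and 14, 93 and 40, and 38 and 75 higher and lower calls. After quantile normalization the 5 bins, from the lowest up, held 55 and 22, 23 and 22, 20 and 30, 17 and 31, and 6 and 53, so the middle bin turned from more higher to more lower calls. Across regions the difference correlated with the level at -0.63 after median centring and at -0.19 after quantile normalization, as a description only, since both are computed from the same arrays. The lowest bin's median ratio was -0.94, -1.01 and -1.16 on the control arrays and -0.82, -0.74 and -0.86 on the CaD arrays, with no overlap. After quantile normalization it was -0.96, -0.90 and -0.95 against -0.90, -0.85 and -0.90, where the lowest CaD array and the highest control array nearly met.

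Calls also differed by probe length, which went with level. Probes on this design ran from 45 nt, the most frequent length, to 60 nt, and the long ones had low ratios. Of 8432 regions with a median probe length of 45 nt, 175 (2.08%) were called higher and 236 (2.80%) lower, beside 5.51% and 1.98% of all regions. Of 2114 regions with a median above 54 nt, 361 (17.1%) were called higher and 0 lower. After quantile normalization the same class gave 38 higher and 6 lower. Within a bin of level the classes differed less. With median centring the share called higher at 45 nt and above 54 nt was 12.5% and 20.5% in the lowest bin. It was 5.17% and 6.39% in the next bin, and 2.38% and 2.94% in the middle one. Probes of 60 nt averaged -0.94, -1.12 and -1.28 on the control arrays and -0.97, -0.87 and -1.01 on the CaD arrays, which overlap. The part of probe length and base composition in the calls was not tested.

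Because a ratio can move through either channel, MeDIP and input signals were also fitted apart, each array and channel centred on its own median, an analysis chosen after the data were seen. With channels and ratio centred separately, the channel shifts do not add up to the ratio difference but differ from it by a constant. At chr8:17985146-17986876 the ratio differed by 0.79, MeDIP by 0.15 and input by -0.55. Which channel had the larger shift, here and below, therefore depends on the centring. MeDIP signal alone differed in 160 regions (0.953%), 70 higher and 90 lower. Input signal alone differed in 3022 regions (18.0%), 1479 higher (8.81%) and 1543 lower (9.19%), although input DNA is not enriched for methylation. Both counts depended on single arrays. Without CaD replicates 1, 2 and 3 in turn they were 11, 3 and 9 for MeDIP, and 952 and 896 for input without CaD replicates 1 and 2. Without control replicates 1 and 2 the MeDIP count was 104 and 94, and without control replicates 1 and 3 the input count was 1737 and 1483. With the scan as a random block the counts were 2 and 252.

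In the 925 regions called higher by ratio, the median MeDIP difference was 0.10 and the median input difference -0.23. MeDIP was higher with CaD in 611 of them and input lower in 732, and the MeDIP shift was the larger one in 377. In the 332 regions called lower the median MeDIP difference was -0.19 and the median input difference 0.21, and MeDIP had the larger shift in 162. A call of the same direction in MeDIP signal alone was present in 13 of the 925 and 19 of the 332. A call of the opposite direction in input signal was present in 341 and 82. In the lowest bin of level, input signal was -0.08, -0.18 and -0.13 on the control arrays and -0.41, -0.41 and -0.28 on the CaD arrays, without overlap. MeDIP signal in that bin was -0.87, -1.09 and -1.17 against -1.18, -1.14 and -1.08. Among the 247 regions called under both scalings the channels, as centred, had median shifts of 0.23 in MeDIP and -0.19 in input for the higher ones. For the lower ones they were -0.22 and 0.22.

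**Figure D2:**
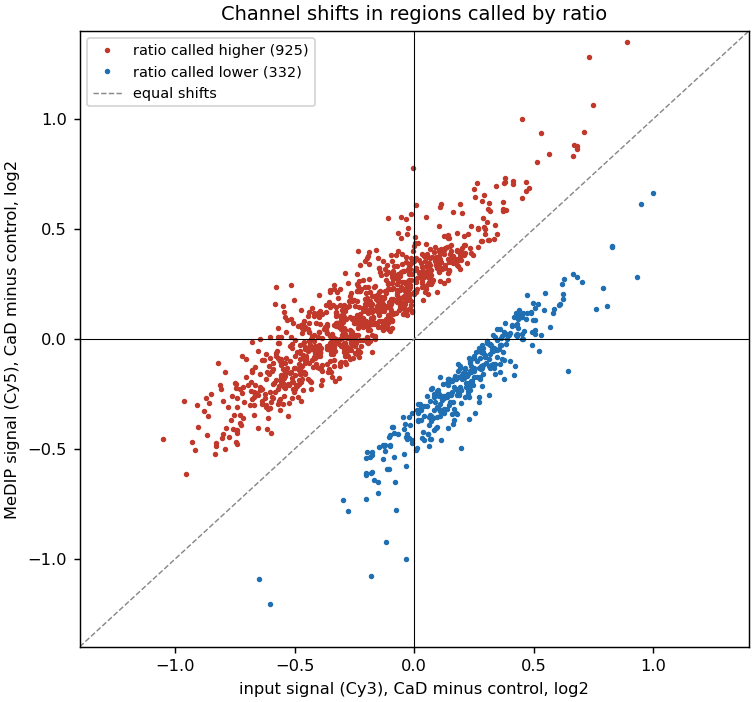
Each point is a region called by ratio, with the CaD minus control difference (log2) in input signal on the x axis and in MeDIP signal on the y axis, red for the 925 higher and blue for the 332 lower. The dashed line marks equal shifts. Red points lie above it and blue points below it, which the call by ratio fixes in advance. Both colours spread along it, from regions where input moved most to regions where MeDIP moved most.

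The leading regions were picked among those where CaD and control arrays did not overlap, so separation was required. The region with the smallest p was chr8:17985146-17986876, a 1731 bp stretch of 9 probes with a median length of 60 nt. Its log2 ratio was -1.65, -1.87 and -1.86 on the control arrays and -1.04, -1.11 and -0.87 on the CaD arrays. All CaD arrays were above all control arrays, and the untreated DR arrays lay between them at -1.40, -1.40 and -1.35. The other formula arrays at -1.19, -1.05 and -1.04 and the LTF arrays at -1.11, -0.94 and -0.94 were near the CaD arrays. They too differed from control, by 0.70 (adjusted p = 0.00367, limma) and 0.80 (adjusted p = 0.000621, limma), so the shift was not particular to CaD. The CaD minus control difference was 0.79 (SE 0.0808, adjusted p = 0.000751, limma), and 0.55 after quantile normalization (adjusted p = 0.0184, limma). It was smallest with loess, at 0.18, where the region was still called. All 9 probes differed in that direction, by 0.31 to 1.28, and 7 of them separated the groups. Input signal carried most of it, at -0.71, -0.54 and -0.52 on the control arrays and -1.25, -1.14 and -1.03 on the CaD arrays. MeDIP signal was -2.19, -2.24 and -2.22 against -2.21, -2.19 and -1.79, so only CaD replicate 3 stood above the control arrays. These values lie far below the array median, and whether the region's probes stood above background was not counted. This was the region called with the scan as a random block (0.77, SE 0.0920, adjusted p = 0.00426, limma).

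The region chr17:36525225-36526933 (11 probes) measured -0.75, -0.66 and -0.80 in control and -0.22, -0.21 and -0.29 in CaD. The groups did not overlap, and the DR arrays at -0.52, -0.59 and -0.56 lay between them. Its difference was 0.50 (SE 0.0696, adjusted p = 0.00752, limma), with 0.30 in MeDIP and -0.11 in input. At chr3:105541867-105542713 (6 probes) the control arrays were at -0.52, -0.56 and -0.59 and the CaD arrays at -0.17, -0.13 and -0.04. The shift of 0.44 (SE 0.0656, adjusted p = 0.00752, limma) was again mostly in MeDIP, at 0.30 against -0.05 in input.

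At chr20:1980183-1981887 (10 probes) the ratio was -1.04, -0.92 and -0.93 in control and -0.20, -0.35 and -0.34 in CaD. The DR arrays were split, at -0.82, -0.93 and -0.40, the last of these (replicate 3) close to the CaD arrays. The difference of 0.67 (SE 0.103, adjusted p = 0.00752, limma) stood beside 0.57 in MeDIP and -0.02 in input, the largest MeDIP shift of the 10 leading higher regions. At chr8:41025841-41027570 (10 probes) the channels went otherwise. The ratio was -1.75, -1.87 and -2.01 in control and -1.13, -1.16 and -1.35 in CaD, a difference of 0.67 (SE 0.101, adjusted p = 0.00752, limma). There the channel differences were -0.23 in MeDIP and -0.81 in input (adjusted p = 0.0103, limma), so the ratio was higher without a higher MeDIP signal. In none of the 10 did MeDIP signal alone pass the test.

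All 10 leading higher regions had a mean ratio below 0 over the 15 arrays, and 9 of them were also called after quantile normalization. Their differences ranged from 0.44 to 0.79 with adjusted p from 0.000751 to 0.00752 (limma). The exception under quantile normalization was chr18:60769-61836, at -1.85, -1.81 and -1.79 in control and -1.18, -1.05 and -1.23 in CaD. Its difference was 0.66 with median centring and 0.43 with quantile normalization (adjusted p = 0.062, limma). The other leading regions were chr1:163981540-163983288 (difference 0.56), chr3:69038998-69040664 (0.56), chr7:12228316-12229916 (0.66) and chr5:26377033-26378785 (0.65). The first of these fell to 0.08 with normexp, and chr3:69038998-69040664 to 0.10 with loess. In each of the 10 the other formula and LTF means were also above the control mean. On the DR arrays the mean lay between control and CaD in 10 of the 10. These regions were picked for the separation of CaD from control, which favours a middle place for another group. The share over all regions was not counted.

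**Figure D3:**
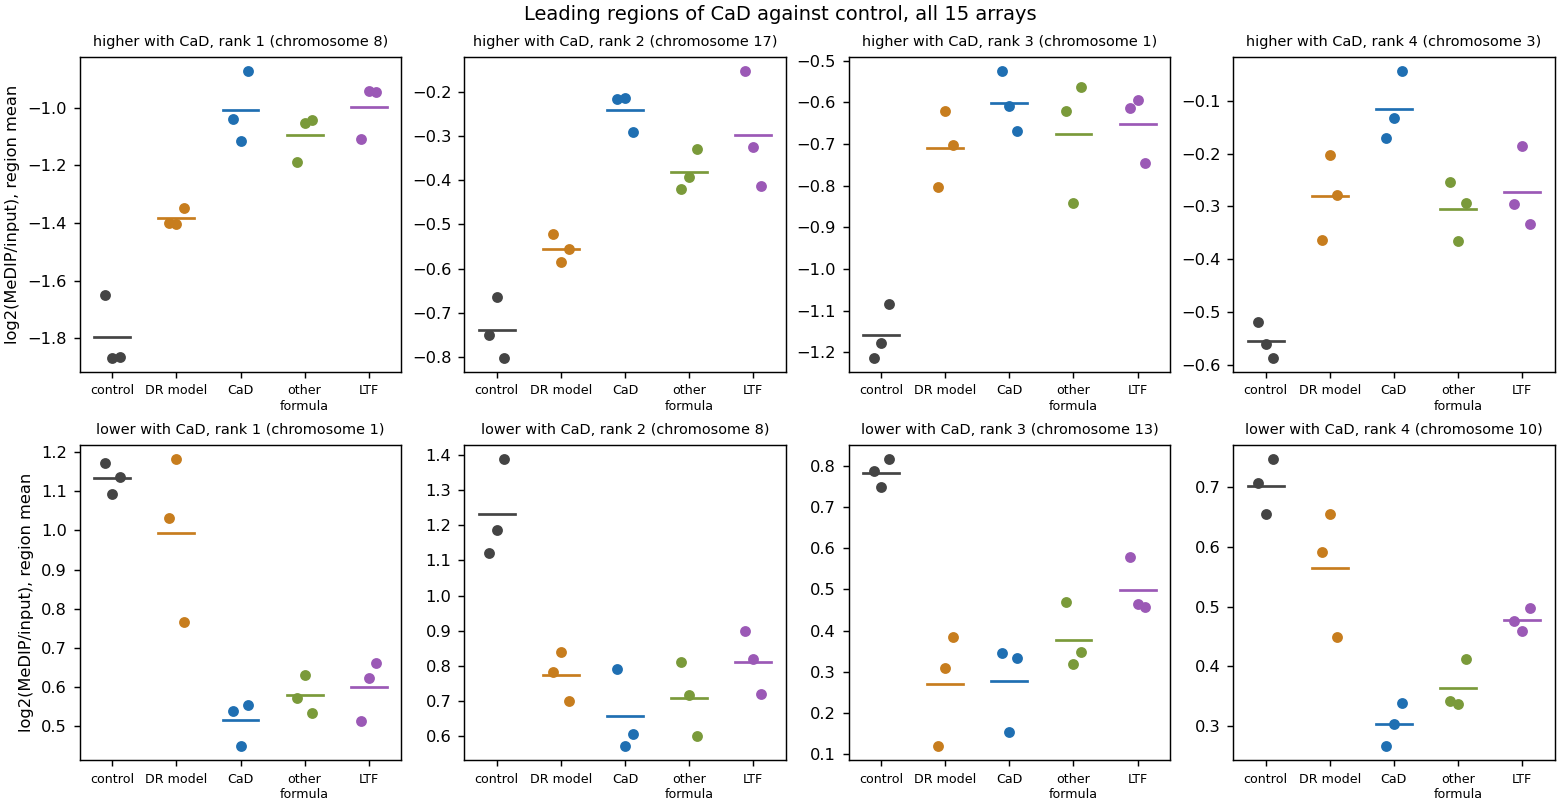
Region means of log2(MeDIP/input) on the y axis for the 4 leading higher regions (top) and 4 leading lower regions (bottom), by group on the x axis; points are the 3 arrays of a group and bars their mean. In each panel the 3 CaD arrays and the 3 control arrays do not overlap, which was required for a region to be picked. The y axes differ between panels.

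Among lower regions the smallest p belonged to chr1:67456312-67457417 (6 probes). It measured 1.17, 1.09 and 1.14 on the control arrays and 0.54, 0.45 and 0.56 on the CaD arrays. The groups were far apart against their spread, and of the DR arrays at 1.03, 1.18 and 0.77 the first pair lay near control and replicate 3 between the groups. The difference was -0.62 (SE 0.0857, adjusted p = 0.00752, limma) and -0.54 after quantile normalization. MeDIP signal carried it: 1.84, 1.51 and 1.50 in control against 0.77, 0.69 and 1.07 in CaD, a difference of -0.78 (adjusted p = 0.0481, limma), with -0.07 in input. The other formula arrays at 0.57, 0.63 and 0.54 and the LTF arrays at 0.51, 0.62 and 0.66 were near the CaD arrays. CaD was below DR by -0.48 with an unadjusted p of 4.35e-05 and an adjusted p of 0.105 (limma), so that contrast did not pass.

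The region chr8:126370797-126372423 (11 probes) had a similar fall in ratio with the channels reversed. It measured 1.12, 1.19 and 1.39 in control and 0.79, 0.57 and 0.61 in CaD, a difference of -0.57 (SE 0.0858, adjusted p = 0.00752, limma). Input rose by 0.81 (adjusted p = 0.0326, limma), and MeDIP differed by 0.15 (adjusted p = 0.738, limma). The input values were 0.04, -0.77 and -0.86 in control and 0.22, 0.28 and 0.33 in CaD, so control replicate 1 stood near the CaD arrays in that channel. At chr16:80999022-81000563 (10 probes) the ratio was 1.04, 1.23 and 1.27 in control and 0.63, 0.53 and 0.68 in CaD. The difference was -0.57, with 0.93 in input (adjusted p = 0.00459, limma) and 0.28 in MeDIP (adjusted p = 0.181, limma).

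At chr13:88595647-88597261 (11 probes) the control arrays were at 0.79, 0.75 and 0.82, and the CaD arrays at 0.35, 0.15 and 0.33. Here the DR arrays (0.12, 0.31 and 0.39) overlapped the CaD arrays and lay below every control array. The difference of -0.51 (SE 0.0782, adjusted p = 0.00752, limma) was seen at all 11 probes, from -1.10 to -0.03, and 8 of them separated the groups. MeDIP differed by -0.36 and input by 0.23. The region chr10:6986232-6986922 (5 probes) measured 0.71, 0.65 and 0.75 in control and 0.27, 0.30 and 0.34 in CaD. The difference of -0.40 stood beside 0.02 in MeDIP and 0.50 in input.

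The 10 leading lower regions differed by -0.62 to -0.35, with adjusted p from 0.00752 to 0.00958 (limma), and 10 of 10 were also called after quantile normalization. All had a mean ratio above 0 and a median probe length of 45 to 46 nt. The other 5 were chr8:53850807-53852411 (-0.43), chr13:95639044-95639469 (-0.44), chr3:112978464-112979674 (-0.35), chr4:163402597-163404282 (-0.47) and chr12:36068994-36070614 (-0.49). The last of these differed by -0.46 in MeDIP and 0.11 in input. In each of the 10 the other formula and LTF means were also below the control mean. On the DR arrays the mean lay between control and CaD in 9 of the 10, the exception being chr13:88595647-88597261. A middle place was again favoured by the choice of the regions.

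**Figure D4:**
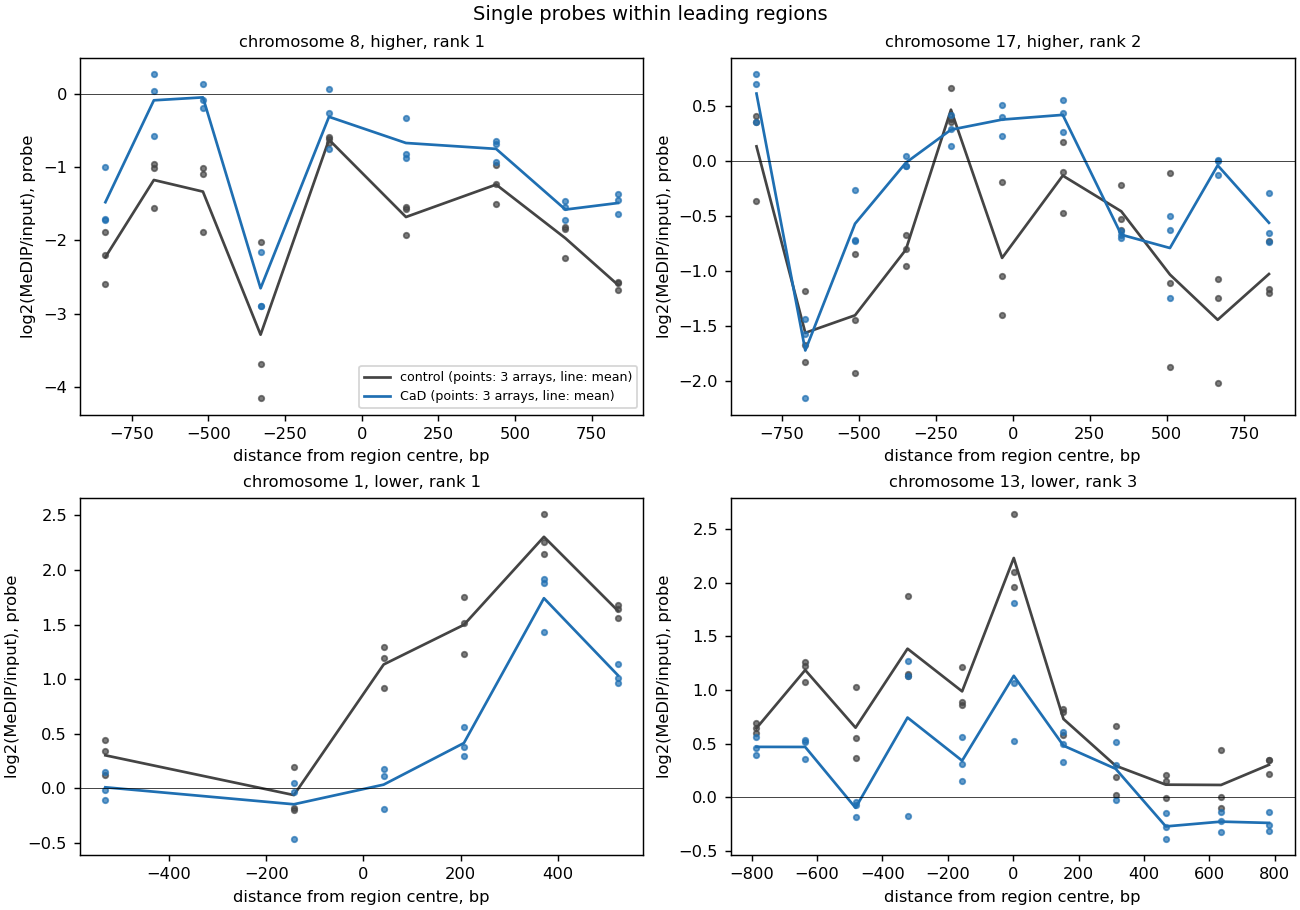
Probe log2(MeDIP/input) on the y axis against distance from the region centre in bp on the x axis, for 2 regions higher with CaD (top) and 2 lower (bottom); points are the 3 control (grey) and 3 CaD (blue) arrays and lines their means. The chromosome 8 difference is in 1 direction at all 9 probes, while on chromosome 17 it is uneven, from -0.21 to 1.41 between probes.

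Part of the higher calls came next to each other in the order of tested regions along a chromosome, whatever the distance between them. Of the 925 higher regions 693 had no neighbouring region called the same way, 81 pairs and 13 triplets were adjacent, and 7 stretches held 4 or more regions. Of the 332 lower regions 316 stood alone and 8 pairs were adjacent. No test of adjacency was made, and the higher group is the larger one.

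The longest stretch was chr4:86867204-87099747, 6 regions and 55 probes over 232.5 kb with a median probe length of 60 nt. Averaged over its regions the ratio was -1.32, -1.21 and -1.30 in control and -0.86, -0.76 and -0.91 in CaD. Its 6 regions differed by 0.34 to 0.57 (adjusted p 0.0159 to 0.0416, limma), and 0 of them were called after quantile normalization. MeDIP differences ran from -0.36 to 0.05 there and input differences from -0.61 to -0.30. The stretch chr1:163981540-164075506 held 5 regions over 94.0 kb, with differences of 0.49 to 0.79 and 3 regions called after quantile normalization. The arrays stood at -1.43, -1.49 and -1.70 in control and -0.84, -0.88 and -0.97 in CaD. The stretch chr3:97553424-97607495 held 4 regions over 54.1 kb, one of 5 stretches of that size and the one with the smallest p. Its differences were 0.56 to 0.73, and 1 region was called after quantile normalization. The region that opens it reversed within the first scan day, at -0.08.

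By chromosome the shares of called regions ranged widely, with no test made. On chromosome 1, 186 regions (8.03%) were called higher and 42 lower, and on chromosome 3, 115 (8.21%) and 22. Chromosome 12 held 7 higher (1.57%) and 20 lower (4.48%), and chromosome 19 held 9 and 14. On the X chromosome, single in these males, 27 were higher (4.46%) and 9 lower (1.49%). Those shares stand beside 5.51% and 1.98% over all regions. After quantile normalization higher calls outnumbered lower ones on chromosomes 1 (29 and 23) and 3 (11 and 4) alone. Chromosomes 12 and 19, with 1 and 5 each, then had the same direction as most others, and X had 4 and 5.

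Single probes gave the same question at finer grain. Of 149550 probes without an outlier spot on any array, 2318 (1.55%) were called, 1285 higher (0.859%) and 1033 lower (0.691%). Of these, 553 (23.9%) lay in called regions, which held 7.06% of all probes tested, and 547 changed the same way as the region. A region's value is the mean of its own probes on the same arrays, so this overlap was favoured in advance and is not separate support. The balance depended on the scaling: 1029 were higher and 1491 lower after quantile normalization, 7383 and 1942 with normexp, and 1668 and 1702 with dim probes left out. Without CaD replicates 1, 2 and 3 in turn the count was 20, 13 and 233, without control replicates 1, 2 and 3 it was 4381, 547 and 960, and with the scan as a random block it was 2.

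The probe at chr4:4816514-4816558 measured 1.60, 2.01 and 1.68 in control and -0.30, -0.16 and -0.18 in CaD. It went from well enriched to below the array median. The difference was -1.98 (SE 0.211, adjusted p = 0.0118, limma), with -2.08 in MeDIP and -0.02 in input, yet its region as a whole differed by -0.15 (adjusted p = 0.308, limma). The DR arrays averaged 1.75 ± 0.459 (SD, n = 3), near control, while the other formula and LTF arrays averaged -0.06 and -0.08, near CaD. At chr3:78244330-78244374 the fall was as large but lay in the input. That probe measured 2.13, 1.57 and 1.74 in control and -0.49, -0.22 and 0.05 in CaD, with 2.28 in input and 0.17 in MeDIP. The probe at chr2:213925937-213925981 was alike, at 1.23, 1.63 and 1.74 against -0.42, 0.04 and 0.17, with 1.91 in input and 0.23 in MeDIP.

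The remaining leading lower probes were chr7:123679943-123679987 (-1.37) and chr12:39544055-39544099 (-1.01). Among higher probes, chr7:142149427-142149471 had the widest gap, -2.08, -2.62 and -2.54 in control and -0.51, -0.94 and -0.72 in CaD. Its difference was 1.69 (SE 0.199, adjusted p = 0.0146, limma), with 1.42 in MeDIP and -0.18 in input. The probe at chr19:41669943-41669987 differed by 1.23, with 1.42 in MeDIP and 0.27 in input. It reversed to -0.02 after normexp correction. The other 3 were chr1:64626170-64626221 (1.14), chr17:86649569-86649613 (1.09) and chr4:83000698-83000742 (1.02). In 4 of these 10 probes' regions, the region itself was called.

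Scan days 1 and 3 give differences from separate arrays. The first day's (CaD replicate 3 minus control replicate 1) and the third day's (CaD replicates 1 and 2 minus control replicates 2 and 3) correlated at 0.42 over 16782 regions after median centring and at 0.41 after quantile normalization. This is across regions, which are not independent replicates. Of the 500 regions with the largest rise on the third day, 78.0% were also higher on the first, where 45.4% of all regions were. Of the 500 with the largest fall, 89.0% were also lower, against 54.6% of all. In the other direction the shares were 92.4% for rises (63.1% of all) and 59.4% for falls (36.9% of all). After quantile normalization the 4 shares were 81.0%, 82.4%, 81.8% and 78.0%, against 47.6% to 52.4% of all regions. Control and CaD animals were not on the same scan on either day, so a shift between scans within a day cannot be told apart from the treatment.

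Against the untreated DR model, which shares the diabetes but not the drug or the insulin, CaD gave 0 called regions (0.00%), with 2514 at an unadjusted p under 0.05 (limma). This count turned on 1 array: without DR replicate 3 it was 1428, 637 higher and 791 lower. DR replicate 3 was scanned with CaD replicates 1 and 2, and its interquartile range of 1.22 lay with theirs, while the other DR arrays had 1.60 and 1.52. In the lowest bin of level its ratio was -0.77 and its input signal -0.37, against -0.99 and -1.01, and -0.23 and -0.24, on the other DR arrays. Of the 1257 regions that differed from control, 0 were called between CaD and DR, while 350 of the 925 and 224 of the 332 had an unadjusted p under 0.05 in that contrast (limma).

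The medians over the called regions show where each group stood. Over the 925 higher regions the median ratio was -0.98 in control, -0.76 in DR, -0.57 in CaD, and -0.65 in both the other formula and LTF groups. Over the 332 lower regions it was 0.63 in control, 0.51 in DR, 0.30 in CaD, 0.35 in the other formula group and 0.37 in the LTF group. These regions were chosen for CaD against control. The choice fixes the place of CaD and control at the ends and favours a middle place for the other groups.

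Few or no regions passed between CaD and the other treated groups, which does not show that they were alike. The contrast with the other formula gave 0 called regions (0.00%) and 188 at an unadjusted p under 0.05 (limma). The contrast with LTF gave 3 (0.0179%), all higher with CaD, and 1281 unadjusted. The LTF arrays made up a scan of their own on the second day, so LTF cannot be told apart from that scan. The other formula arrays shared the scan of CaD replicate 3, so the counts of the contrasts cannot be set side by side. The 3 regions called against LTF were chr1:82039053-82039420 (0.07 ± 0.0300 in CaD and -0.38 ± 0.0626 in LTF), chr13:87111682-87113374 (-0.49 ± 0.0353 and -1.03 ± 0.125) and chr8:114794468-114796002 (-0.21 ± 0.0478 and -0.74 ± 0.0590; SD, n = 3 each). Their differences were 0.45, 0.53 and 0.53, each at adjusted p = 0.0472 (limma), and none passed when any 1 array of CaD or LTF was left out. None of these 3 passed between CaD and control.

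**Figure D5:**
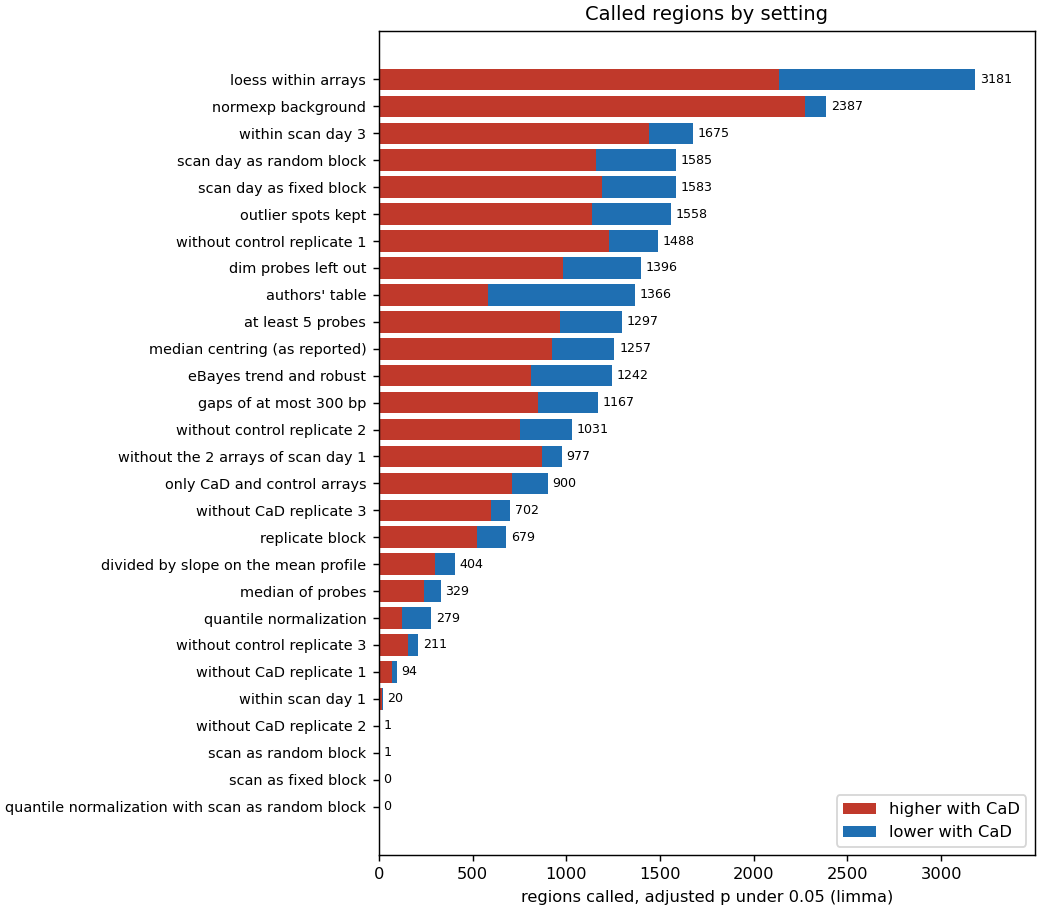
Regions called in CaD against control (adjusted p under 0.05, limma) on the x axis for each processing setting on the y axis, red for higher and blue for lower with CaD. The count runs from 0 to 3181, with 1257 as reported, and the smallest counts come with the scan in the fit or without CaD replicate 2.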

How the data were processed

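The deposited scanner files hold 1 two-colour Agilent array per sample, read with Feature Extraction 11.0.1.1 per the file headers, with MeDIP DNA in Cy5 and input DNA in Cy3 per the labels. The deposited intensity values are Feature Extraction's processed signals. Outlier spots and 6856 control spots were left out of the 172669-probe analysis. The log2 ratio of red over green was centred on each array's median. The authors' deposited value table, whose scale, centring and direction are not stated, was taken as log2 values and used as an alternative. It correlated with the scanner ratios at 0.846 to 0.886. Probe positions are those of rn4.

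Runs of probes with gaps of at most 500 bp gave 17668 runs, of which 884 had fewer than 3 probes and 2 lacked a value. Region means of all 15 arrays were fitted with a mean per group in limma 3.58.1 (R 4.3.3), two-sided, with Benjamini-Hochberg adjustment over 16782 regions at 0.05. The same model was fitted to single probes. The region fit was also run on simulated region values with independent noise. That simulation lacked the correlation within a scan (0.39 in these data), so it says nothing about the effect of scans. The number of arrays limits the precision. The regions named are the 10 higher and 10 lower of smallest p with separated groups, the 5 each of smallest p called under both scalings (all among the former 20), the 3 stretches of most adjacent calls, and the 5 higher and 5 lower probes of smallest p. The regions of the MeDIP channel in the closing part, the probe-length remarks and the days' comparison were chosen after values were seen. The comparison, its lists and its tests were chosen with earlier results of these data known. Gene and leukocyte marker lists were not used, since no file pairs rn4 probes with genes or sequences. Normexp used median spot and background signals. Alternatives were quantile normalization, loess, other region rules, the scan and scan day as blocks, and each array left out in turn.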

Additional observations from a re-analysis of the deposited data

How the results depend on the processing

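The count of 1257 regions for CaD against control became 279 with quantile normalization, 404 with arrays divided by their slope on the mean profile, 3181 with loess, 2387 with normexp, 329 with the median of a region's probes, 1 with the scan as a random block, 0 with it after quantile normalization (2645 at unadjusted p under 0.05, limma) and 0 with it as a fixed block. It was 1 to 1488 with 1 array left out, and 20 between the lone CaD and control arrays of scan day 1, whose spread is only assumed from the other arrays. The cause of these changes was not tested. The fixed-block fit left out the LTF arrays and compared CaD with control only through DR arrays. Under the other alternatives, the replicate block aside, it stayed between 900 and 1675. Same-numbered arrays of the 2 groups deviated together with correlations of -0.18, 0.16 and -0.003. Arrays of unlike number ran from -0.28 to 0.25. These deviations are taken from group means of 3 arrays, so they show no sign of pairing but cannot settle it. With the replicate block 679 regions and 271 probes were called. Probe calls (2318) became 9325 with normexp, 2 with the scan as a random block and 13 to 4381 with 1 array left out. MeDIP-channel calls (160) became 2, and 3 to 152 with 1 array left out; input-channel calls (3022) became 252, and 896 to 2562. CaD against DR gave 3 regions after quantile normalization and 0 to 1428 with 1 array left out. CaD against LTF (3) gave 0 with the scan as a random block and 0 with any 1 array of those groups left out. The difference in interquartile range reversed to 0.0272 with normexp, and the slope difference of -0.12 (exact permutation p = 0.4) to 0.0425 within scan day 1. Over 34 named regions and their alternatives, 612 values kept their call, 270 lost it and 1 reversed (-0.0799, the opening region of the chromosome 3 stretch on scan day 1); over 10 named probes 101 kept it, 15 lost it and 1 reversed (-0.0205, the chromosome 19 probe with normexp). With 3 arrays a group and scans apart by group, calls of this size rest on few arrays.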

Other observations

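In 16 regions the ratio was called with both scalings and MeDIP signal alone was called the same way, 4 higher and 12 lower with CaD. They were picked after the values were seen, and MeDIP signal is a part of the ratio, so the joint call is not independent support. In chr14:103656593-103657888 (9 probes) the ratio was 1.47, 1.43 and 1.99 on the control arrays and 0.78, 0.64 and 0.84 on the CaD arrays. The DR arrays, at 1.85, 1.80 and 1.32, stayed within or near the control range, and the other formula and LTF groups averaged 0.85 and 0.84. The CaD minus control difference of -0.88 (SE 0.164, adjusted p = 0.0115, limma) came with a lower MeDIP signal (adjusted p = 0.0256, limma) and -0.04 in input, and it was the largest fall among the 332 lower regions.

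In chr4:173790632-173792322 (10 probes) the pattern of groups was alike, at 0.69, 0.74 and 0.94 in control, 0.99, 0.72 and 0.60 in DR and 0.40, 0.22 and 0.37 in CaD. The difference was -0.46 (adjusted p = 0.0201, limma), with -0.58 in MeDIP and -0.03 in input. In chr10:4612895-4614519 (9 probes) the DR arrays went with CaD instead: 0.69, 0.64 and 0.67 in control, 0.22, 0.47 and 0.31 in DR and 0.28, 0.30 and 0.33 in CaD. MeDIP differed by -0.46 there and input by -0.01. None of these regions passed between CaD and DR, since that contrast gave 0 calls.

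Of the 4 higher ones, chr10:61571790-61573552 (10 probes) measured -1.08, -0.84 and -1.02 in control and -0.32, -0.36 and -0.59 in CaD, with 0.40 in MeDIP and -0.07 in input. In chr11:37461881-37465323 (19 probes) the ratio was -0.35, -0.45 and -0.31 in control and 0.08, -0.01 and 0.02 in CaD, with DR between at -0.26, -0.28 and -0.15. MeDIP differed by 0.46 there and input by 0.14, and the ratio by 0.40 (adjusted p = 0.00752, limma). In chr11:59398786-59400325 (8 probes) both channels rose, MeDIP by 1.28 and input by 0.73.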
